A study of Ovis aries with 18 samples.

Results

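Levels of 4 microRNAs (miRNAs), oar-miR-10a, oar-miR-10b, oar-miR-99a and oar-miR-125b (written below without the prefix oar, for sheep), were followed in the plasma of sheep on a standard or a high-fat diet. They were taken by name as the listed features of the miR-10, miR-99 and miR-125 families, 4 of the 364 features counted in the study. The study, titled as one of leptin resistance in obesity, used 12 Polish Longwool ewes, all ovariectomized and carrying estradiol implants. Of these, 6 were assigned to a standard diet (CTRL) and 6 to a high-fat diet (OBESE) given for 14 weeks. Blood was taken at weeks 7, 10 and 14, and 18 libraries were deposited, 3 for each of the 6 combinations of diet and week. No age is given in the labels used here. Which ewe, or how many ewes, a library represents is not stated. A p-value here therefore speaks only of the variation among libraries, whether technical or between animals, and weeks may share ewes.

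miRNAs are short RNAs that guide silencing complexes to messenger RNAs, mainly through a short stretch at their 5′ end called the seed. In vertebrates the miR-10 genes lie inside the clusters of HOX genes, the transcription factors that set position along the body axis. miR-10a and miR-10b share their seed and differ in the middle of the mature RNA. miR-99a, a relative of miR-10 with a shifted seed, is known to restrain mTOR and the IGF1 receptor in growth signalling. miR-125b belongs to the family of the worm lin-4 RNA, is transcribed with let-7 and miR-99 or miR-100 in several vertebrate clusters, and is studied in muscle, skin and immune cells. In plasma such RNAs are carried in vesicles and protein complexes, and fewer source cells and less RNA released per cell cannot be told apart.

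In RefSeq's genes for the sheep assembly ARS-UI_Ramb_v3.0, neighbours were read off for each miRNA. This placed HOX genes beside miR-10a and miR-10b only among the 4. All 107 named features of the files matched a gene of that table, and 2 of them had a HOX gene among the 5 nearest genes on either side. These were MIR10A, with 7 HOXB genes among its 10 neighbours (HOXB3 and HOXB4 next to it), and MIR10B, with 6 HOXD genes among its 10 (HOXD4 next to it). MIR99A had 0 HOX genes among its 10 neighbours and lay next to MIRLET7C, the gene of let-7c. MIR125B, the gene matched to miR-125b, had 0 HOX genes and 0 miRNA genes among its 10. A gene copy missing from RefSeq's genes would not be seen here, and counts of a mature miRNA do not tell gene copies apart. The 4 matched genes lay on 4 different chromosomes (11, 2, 1 and 15 in the order above). "HOX-linked" therefore describes the 2 miR-10 genes here, and the other 2 are relatives by family. The build used for the counts is not given in the sources used here, so the table served for names and neighbours alone.

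All 4 were counted in every library, at moderate levels. miR-10a averaged 839 ± 161 CPM (counts scaled to a common library size, with TMM factors that align the typical miRNA between libraries; SD, n = 18) and ranked 44th of all features, 20th of the named ones. miR-10b averaged 506 ± 91.4 CPM, miR-125b 239.6 ± 69.7 CPM and miR-99a 239.2 ± 63.4 CPM, at ranks 61, 73 and 74. Together the 4 took 0.184% ± 0.0342 of a library's counts, from 0.124% to 0.234%. A mature miRNA is read whole, so these levels carry no length term, although ligation and amplification can favour some sequences over others.

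**Figure D1:**
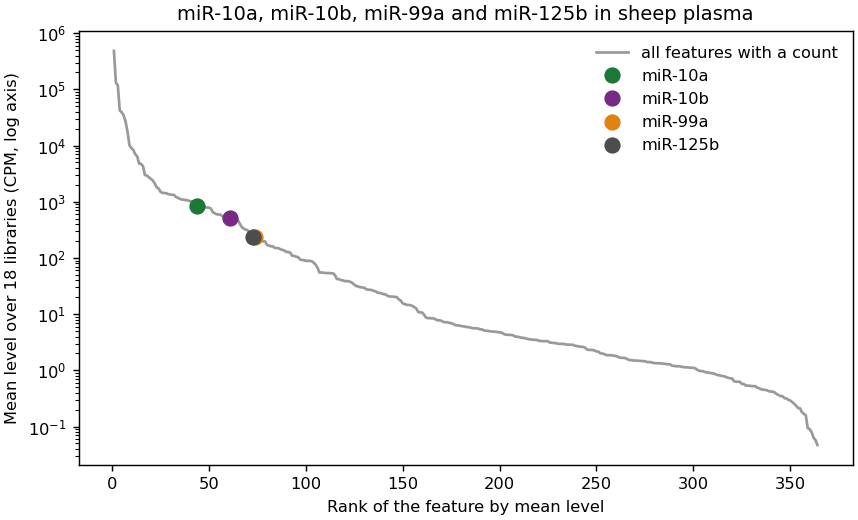
Mean level of each feature over the 18 libraries (vertical axis, CPM on a log scale) against its rank (horizontal axis), with the 4 miRNAs as coloured points. miR-10a at 839 CPM and miR-10b at 506 CPM sit above miR-99a and miR-125b, whose points overlap near 239 CPM.

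The order of the levels was the same in nearly every library, apart from its last step. miR-10a had more counts than miR-10b in 18 of 18 libraries, by 1.09 to 3.58 times, and the exact 95% binomial interval of its share of both lay above an even split in 17 of them. miR-10b had more counts than miR-99a in 18 of 18 (1.27 to 3.14 times) and than miR-125b in 18 of 18 (1.48 to 3.29 times). miR-99a and miR-125b could not be ordered. miR-99a was the higher in 9 of 18 libraries, with an interval clear of an even split in 4 on either side. Reads that match miR-10a and miR-10b alike could be assigned to either, and the rule used is not given in the sources used here.

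Counts were high enough that counting error was a small part of the spread, if each count is 1 molecule. miR-10a had between 310 and 1554 counts in a library, miR-10b 181 to 807, miR-99a 72 to 378 and miR-125b 61 to 416. The counting error of the median library was 4.33% for miR-10a, 5.41% for miR-10b, 7.85% for miR-99a and 8.14% for miR-125b. The spread between libraries of 1 group was 19.5%, 18.8%, 28.3% and 30.6%, as a coefficient of variation in CPM. The fitted biological coefficients of variation were 24.7%, 25%, 30% and 32.7%, all below the median of 33.6% over the 168 features kept after the filter on low counts. Fitted values are drawn toward those of other features, and here they lie above the spread in CPM. They are thus not that spread with counting error removed. The median was not taken over features of like level. Intervals and errors from counts cover counting error only. They take each count as 1 independent molecule, and would be too narrow if the counts are amplified reads, which is not stated.

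miR-10a, known for holding down inflammatory signalling in endothelium, stood at 744, 932 and 902 CPM in the CTRL libraries of week 7 (replicates 1, 2 and 3), at 999, 685 and 1229.5 CPM at week 10 and at 875, 639.8 and 842 CPM at week 14. The OBESE libraries stood at 1039, 805 and 661 CPM at week 7, at 848, 982 and 705 CPM at week 10 and at 779, 838 and 595 CPM at week 14. The diets overlapped at every week, and the highest library was CTRL week 10 replicate 3. Over the 9 libraries of a diet the mean was 872 ± 178 CPM in CTRL and 806 ± 143 CPM in OBESE. The log2 fold change of OBESE over CTRL, averaged over the 3 weeks, was -0.11 (SE 0.142, 95% interval -0.41 to 0.19), and it was 0.06 without TMM scaling. Leaving out 1 library moved it to between -0.21 (without OBESE week 7 replicate 1) and -0.07 (without CTRL week 10 replicate 3).

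miR-10b, best known from invasive tumours, had CTRL values of 470.4, 543 and 480.1 CPM at week 7, of 432, 528 and 539.6 CPM at week 10 and of 244, 563 and 465 CPM at week 14. Its OBESE values were 576, 396 and 545 CPM at week 7, 599, 598 and 644 CPM at week 10 and 483, 543 and 465 CPM at week 14. At week 10 the 3 OBESE libraries lay above the 3 CTRL libraries without overlap, and at weeks 7 and 14 the diets overlapped. CTRL week 14 replicate 1 lay far below all other libraries.

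The mean of miR-10b was 474 ± 96.5 CPM in CTRL and 539 ± 77.9 CPM in OBESE (SD, n = 9 each). Over the 3 weeks the log2 fold change was 0.18 (SE 0.147, 95% interval -0.13 to 0.49), with an edgeR adjusted p of 0.568. Without CTRL week 14 replicate 1 it was 0.083. At week 10 the log2 fold change was 0.29 (SE 0.254), and at week 14 it was 0.23 (SE 0.254) and turned to -0.07 without that library.

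miR-99a had CTRL values of 371, 173 and 183 CPM at week 7, of 172, 189 and 255 CPM at week 10 and of 132, 280.4 and 209.5 CPM at week 14. The OBESE values were 292, 218 and 236 CPM at week 7, 280.4, 311 and 309 CPM at week 10 and 263, 269.6 and 163 CPM at week 14. Its highest and its lowest library were both CTRL, week 7 replicate 1 and week 14 replicate 1. As for miR-10b, the diets did not overlap at week 10, with every OBESE library above every CTRL library.

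The mean of miR-99a was 218 ± 72.8 CPM in CTRL and 260.2 ± 47.6 CPM in OBESE libraries (SD, n = 9 each). Its log2 fold change over the weeks, 0.25 (SE 0.19, 95% interval -0.15 to 0.65), was the highest of the 4, with an edgeR p of 0.207 before adjustment. It was 0.16 without OBESE week 7 replicate 1, without CTRL week 14 replicate 1 or without OBESE week 14 replicate 2, and at most 0.35, without CTRL week 7 replicate 1. At week 10 it was 0.54 (SE 0.329), with an edgeR p of 0.117 before adjustment, the smallest of the 4 miRNAs in any of the 10 edgeR comparisons, and an adjusted p of 0.722. At week 7 it was 0.04 (SE 0.331) and 0.46 without CTRL week 7 replicate 1. At week 14 it was 0.16 (SE 0.329) and turned to -0.10 without CTRL week 14 replicate 1. The first of these libraries had the lowest TMM factor, 0.653, which raises its CPM.

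miR-125b, a regulator of immune and muscle cell differentiation, had CTRL values of 317, 241 and 181 CPM at week 7, of 145, 276 and 329 CPM at week 10 and of 134, 264 and 229 CPM at week 14. The OBESE values were 187, 199 and 348 CPM at week 7, 182, 342 and 332 CPM at week 10 and 215, 187 and 205 CPM at week 14. The diets overlapped at all 3 weeks, and only at OBESE week 14 did the 3 libraries lie close together. The diet means were 235 ± 70.2 CPM in CTRL and 244 ± 73.1 CPM in OBESE libraries, a log2 fold change over the weeks of 0.04 (SE 0.209, 95% interval -0.40 to 0.48). It took either sign when single libraries were left out, from -0.103 to 0.112.

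**Figure D2:**
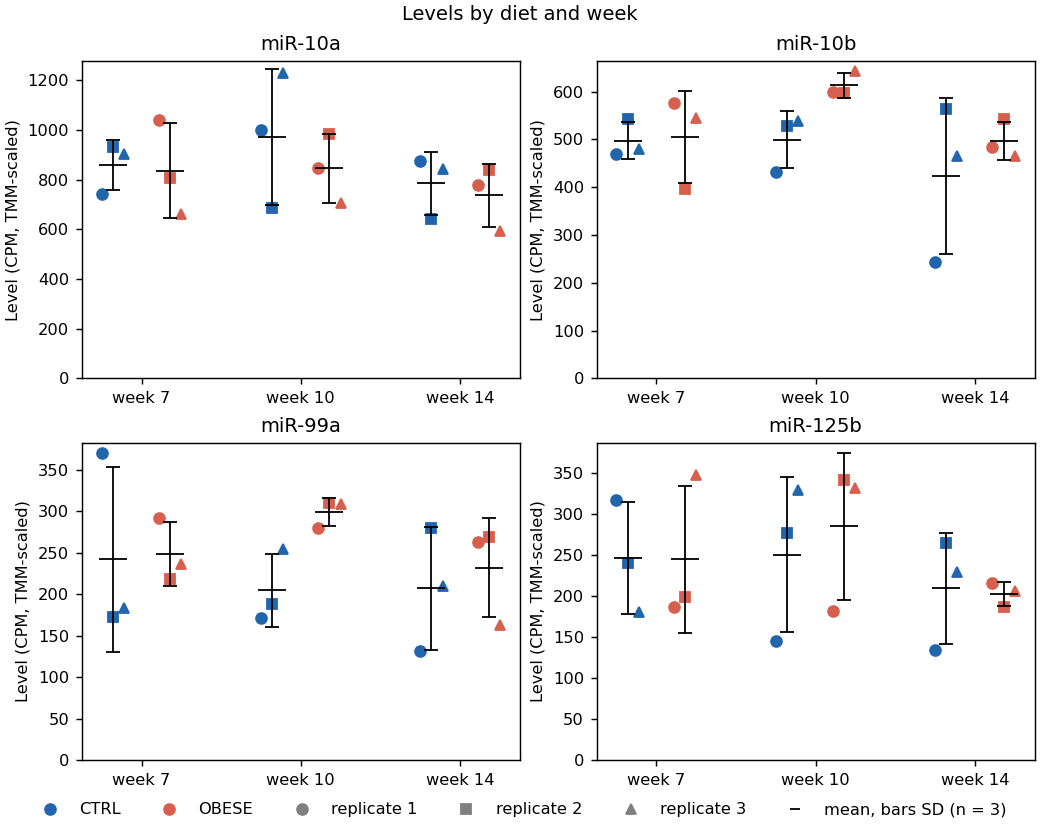
Level of each miRNA in every library (vertical axes, CPM after TMM scaling, from 0) by week and diet. Symbols give the replicate number, black dashes the mean and bars the SD of 3 libraries. At week 10 miR-10b and miR-99a show every OBESE library above every CTRL library, and CTRL week 14 replicate 1 is the lowest point of miR-10b, miR-99a and miR-125b.

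None of the 4 passed in a comparison of the diets. With edgeR's quasi-likelihood test and Benjamini-Hochberg adjustment over the 168 tested features, 0 of 4 passed an adjusted p of 0.05 for the average over weeks, where 0% of all features passed, and likewise at weeks 7, 10 and 14 (0% of features at each). Before adjustment 0 of 4 had a p under 0.05 in these comparisons, against 11.3% of features for the average and 5.36%, 6.55% and 7.74% at the 3 weeks. DESeq2 and limma-voom also gave 0 of 4 calls and 0 of 4 at an unadjusted p under 0.05, with smallest p of 0.0883 and 0.111 in any of the 10 comparisons. Over the same comparisons DESeq2 called 0% to 0.551% of 363 features and had 1.38% to 7.44% at an unadjusted p under 0.05, and limma-voom called 0% of 168 and had 1.79% to 11.9%.

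The signs of the diet differences are given beside those of all features, and nothing is read from them alone. For the average over weeks 3 of 4 were positive, with a median log2 fold change of 0.11, while 48.8% of all features were positive and their median was -0.00216. At week 10 it was 3 of 4 with a median of 0.24 (48.8% and -0.0344 over all features). Groups without overlap at week 10 were seen for 2 of the 4, miR-10b and miR-99a, and for 13.1% of all features. At weeks 7 and 14 positive values were found for 2 of 4 each (48.8% and 49.4% of features), and separate groups for 0 of 4 (8.93% and 9.52%).

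Scaling moved these values for all features at once. Without TMM scaling the median over all features for the averaged difference was 0.162, all 4 were positive, and miR-10b and miR-99a reached log2 fold changes of 0.36 and 0.46 with unadjusted edgeR p of 0.0495 and 0.0242 (adjusted p = 0.339 for both). In that setting 22 of all 168 features had an unadjusted edgeR p under 0.05, against 19 with TMM scaling. How many of all features were positive there was not counted. Over all alternatives the edgeR, DESeq2 or limma adjusted p of the averaged difference ranged from 0.339 to 0.898 for miR-10b and from 0.339 to 0.832 for miR-99a. With counts summed over weeks into 3 values a diet, the log2 fold changes were 0.26 (SE 0.219) and 0.32 (SE 0.195). The edgeR adjusted p was 0.745 for both.

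**Figure D3:**
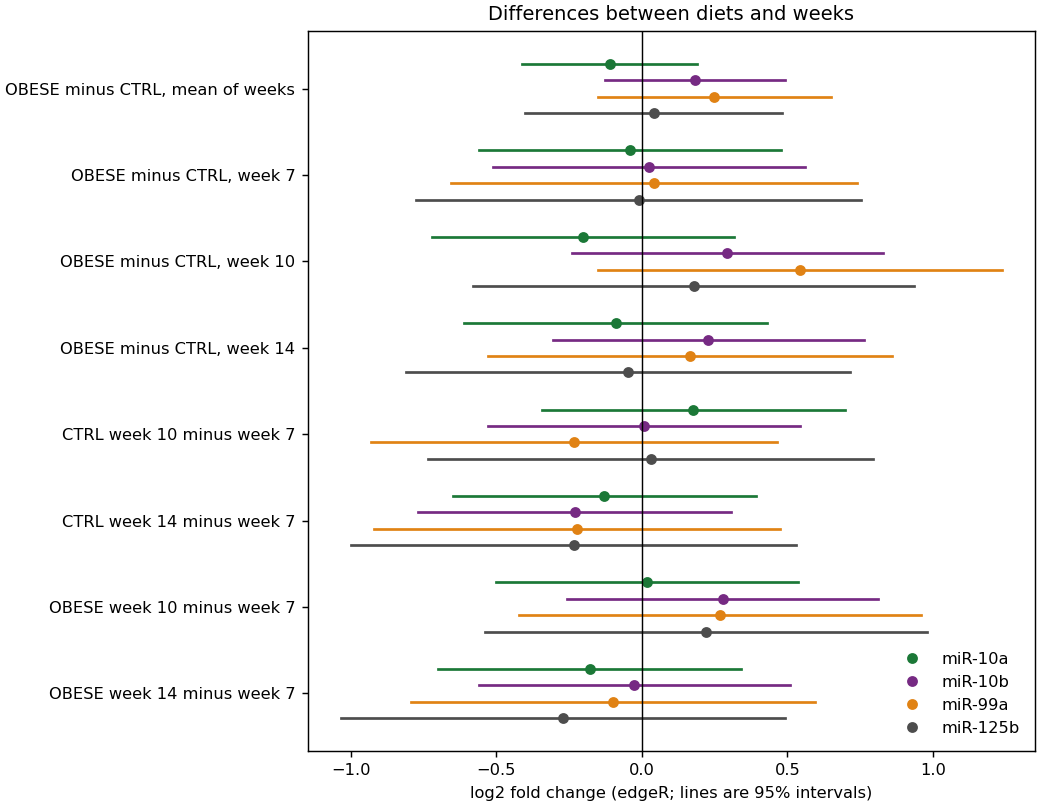
Log2 fold change (horizontal axis) of each miRNA in 8 comparisons (vertical axis), fitted by edgeR, with lines for the 95% interval. Every interval crosses 0, and the point farthest from 0 is miR-99a for the diets at week 10, at 0.54.

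What the intervals leave room for differed between the miRNAs. The 95% interval of the averaged diet difference reached 0.30 to either side on the log2 scale for miR-10a, 0.309 for miR-10b, 0.401 for miR-99a and 0.44 for miR-125b. For the diets at week 7 it reached 0.521, 0.536, 0.697 and 0.765. The median over the 168 features was 0.532 for the averaged difference and 0.925 at week 7. Intervals of the averaged difference treat the weeks as independent, and they are too narrow if weeks share ewes. With counts summed over weeks the SE was 0.215, 0.219, 0.195 and 0.247 in the order above. In the main fit it was 0.142, 0.147, 0.19 and 0.209.

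The weeks were next compared within each diet. In CTRL, week 10 against week 7 gave log2 fold changes between -0.23 (miR-99a) and 0.18 (miR-10a), and week 14 against week 7 gave 4 negative values between -0.23 and -0.13, so that 3 of 4 and 0 of 4 were positive, against 44% and 46.4% of features. With the replicate number as a block, where every same-numbered pair of libraries of these weeks deviated together, miR-10b and miR-125b were -0.00385 and -0.048 at week 10, which leaves 1 of 4 positive. The count for week 14 rests on single libraries. Without CTRL week 14 replicate 1, 3 of the 4 were above 0 (miR-10b 0.0439, miR-99a 0.0147 and miR-125b 0.000348), without replicate 2 miR-10a was 0.0439, and without CTRL week 7 replicate 1 miR-99a was 0.278. In OBESE, week 10 against week 7 gave 4 positive values, 0.28 (SE 0.253) for miR-10b, 0.27 (SE 0.328) for miR-99a, 0.22 (SE 0.36) for miR-125b and 0.02 (SE 0.246) for miR-10a. With 1 library left out these reached 0.489 for miR-10b, 0.507 for miR-99a and 0.318 for miR-10a (each without OBESE week 7 replicate 1), and miR-125b ranged from 0.134 to 0.643 (without OBESE week 10 replicates 2 and 1). The 3 OBESE libraries of week 10 lay above the 3 of week 7 for miR-10b, the 1 instance of groups without overlap among the 4 in the week comparisons, where 16.1% of features had it in that comparison. Without TMM scaling these groups overlapped, with a highest value of 635 CPM at week 7 and a lowest of 604 CPM at week 10. Week 14 against week 7 in OBESE gave 4 negative values between -0.27 and -0.03. In OBESE 4 of 4 and 0 of 4 were thus positive, against 47.6% and 50.6% of features. Without OBESE week 7 replicate 1, 3 of the 4 were above 0 at week 14 (miR-10a 0.0908, miR-10b 0.162 and miR-99a 0.106). In the other 3 week comparisons 0 of 4 had separate groups (4.76% and 5.36% of features in CTRL, 13.7% in OBESE week 14 against 7). Without TMM scaling miR-99a turned positive in CTRL week 10 against week 7 and miR-10b in OBESE week 14 against week 7.

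None of these passed the edgeR test. 0 of 4 were called in each of the 4 week comparisons (0% of features in each), and 0 of 4 had an unadjusted p under 0.05, against 1.79% and 3.57% of features in CTRL and 4.17% and 7.74% in OBESE at weeks 10 and 14. Whether the diet difference changed with time was tested as an interaction. In the 2 interactions of diet and week, 0 of 4 were called (0% of features in each), 0 of 4 had an unadjusted p under 0.05 (5.95% of features in each), and the edgeR p of the 4 ran from 0.297 (miR-99a, week 10 against 7) to 0.945 (miR-125b, week 14 against 7). Positive interactions were found for 3 of 4 at week 10 and 2 of 4 at week 14, against 54.2% and 50% of features.

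Ratios of 2 miRNAs within a library need no scaling between libraries. The ratio of miR-10a to miR-10b counts was 1.58, 1.72 and 1.88 in the CTRL libraries of week 7, 2.31, 1.297 and 2.28 at week 10 and 3.58, 1.14 and 1.81 at week 14. In OBESE libraries it was 1.80, 2.03 and 1.21 at week 7, 1.416, 1.64 and 1.09 at week 10 and 1.61, 1.54 and 1.28 at week 14. CTRL libraries reached higher values, while the low ends of both diets met. On the log2 scale the mean was 0.89 ± 0.49 in CTRL and 0.57 ± 0.285 in OBESE (SD, n = 9 each), a difference averaged over weeks of -0.31 (two-sided exact permutation of diets within weeks, p = 0.141, adjusted p = 0.228 over the 2 ratios tested). Here and below, the permutation of an averaged difference treats the weeks as independent. If weeks share ewes, its p-values are not exact.

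The difference in this ratio was carried unevenly by the libraries. It was negative at each week, at -0.07, -0.47 and -0.40 for weeks 7, 10 and 14 (exact p = 0.9, 0.3 and 0.6, where 3 libraries against 3 cannot give less than 0.1). Without CTRL week 14 replicate 1 the average fell to -0.17 (exact p = 0.309), and without CTRL week 14 replicate 2 it was -0.44 (exact p = 0.0323, unadjusted).

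The ratio of miR-99a to miR-125b was 1.17, 0.717 and 1.01 in CTRL libraries of week 7, 1.18, 0.683 and 0.774 at week 10 and 0.982, 1.06 and 0.913 at week 14. In OBESE libraries it was 1.56, 1.10 and 0.679 at week 7, 1.54, 0.909 and 0.931 at week 10 and 1.22, 1.44 and 0.794 at week 14. OBESE libraries reached higher values (1.56 against 1.18), while the low ends of both diets met (0.679 and 0.683). The log2 mean was -0.11 ± 0.293 in CTRL and 0.12 ± 0.433 in OBESE (SD, n = 9 each), a difference of 0.23 (two-sided exact permutation within weeks, p = 0.228, adjusted p = 0.228). With 1 library left out it lay between 0.136 and 0.336 (without OBESE week 7 replicates 1 and 3). The other 4 ratios, added afterwards, gave exact p from 0.0983 (miR-10a to miR-99a, -0.40) to 0.595, and the smallest adjusted p over all 6 was 0.423.

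**Figure D4:**
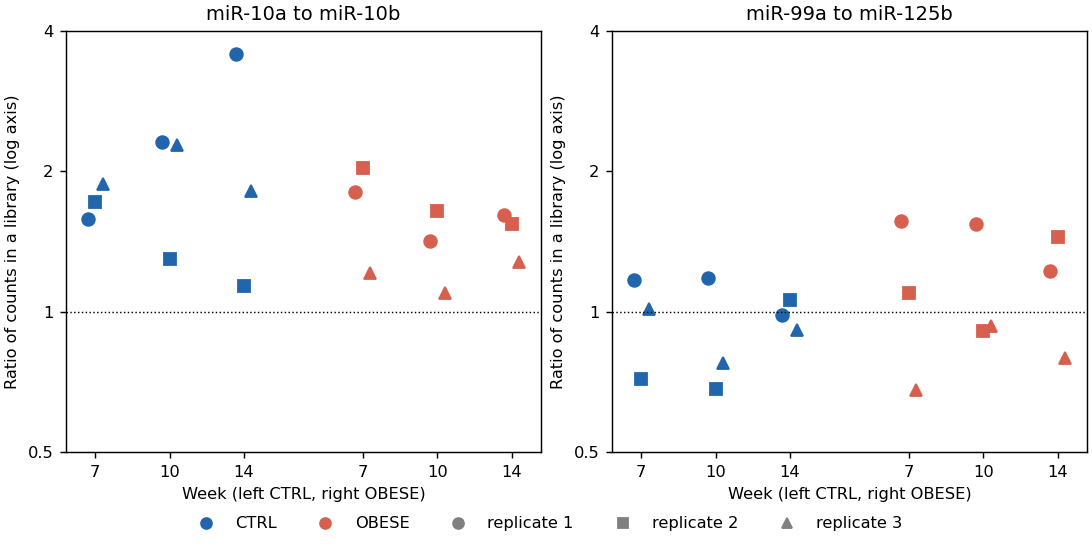
Ratio of counts of miR-10a to miR-10b (left) and of miR-99a to miR-125b (right) in each library, on log axes, against week, with CTRL libraries on the left of each panel and symbols for the replicate number. All miR-10a to miR-10b points lie above 1, with CTRL week 14 replicate 1 at 3.58, while miR-99a to miR-125b scatters around 1.

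In OBESE libraries, miR-10a was lowest in 1 replicate number at all 3 weeks. It stood at 595 to 705 CPM in the 3 libraries of replicate 3 and at 779 or more in the other 6. In the same 3 libraries the ratio of miR-10a to miR-10b was 1.09 to 1.28, below the other 6. This was looked for after the values had been seen. Such a separation of 1 replicate number was found for 1 of the 4 miRNAs in OBESE and 0 of 4 in CTRL, and for 17.3% and 20.8% of the tested features.

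**Figure D5:**
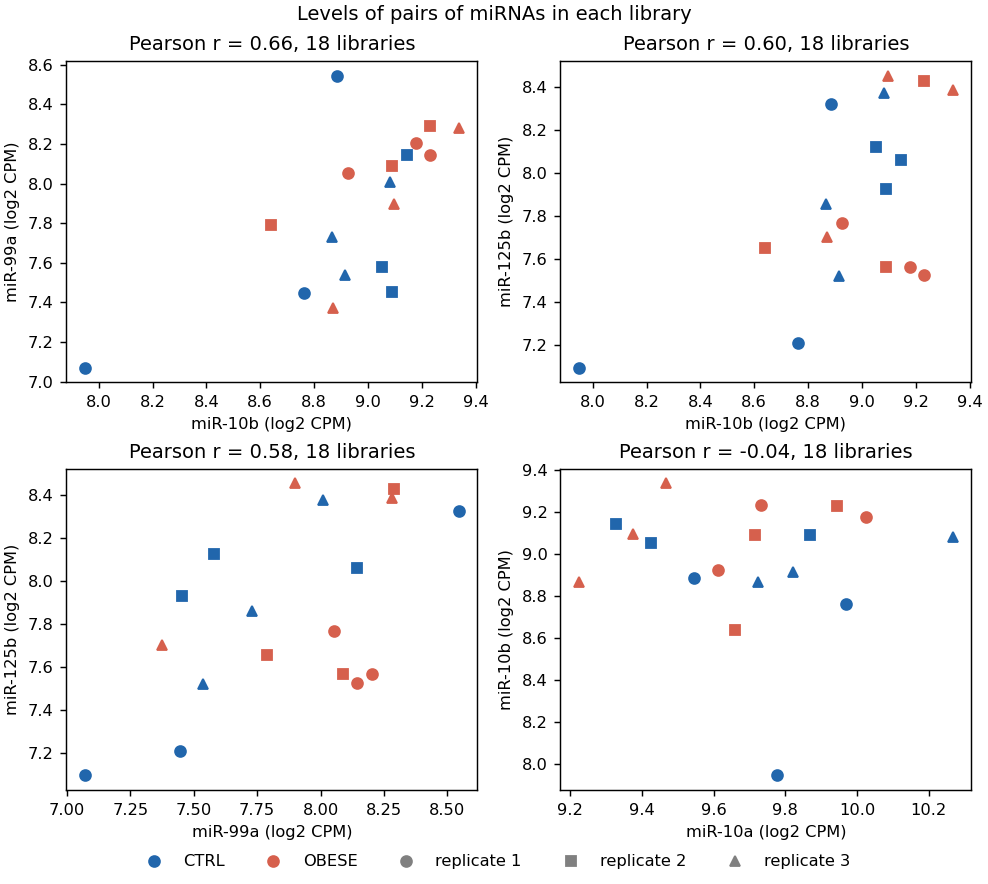
Levels of 4 pairs of miRNAs in the 18 libraries, in log2 CPM on both axes, with colours for diet and symbols for the replicate number. miR-10b, miR-99a and miR-125b vary together, with CTRL week 14 replicate 1 at the lower left, and miR-10a shows no trend with miR-10b.

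Across libraries miR-10b, miR-99a and miR-125b varied together, and miR-10a showed little relation to them over all 18. The levels in log2 CPM gave a Pearson r of 0.661 and a Spearman rho of 0.668 for miR-10b and miR-99a, 0.602 and 0.470 for miR-10b and miR-125b, and 0.579 and 0.494 for miR-99a and miR-125b. miR-10a gave r of -0.038 with miR-10b, 0.0015 with miR-99a and -0.199 with miR-125b, with rho of 0.0031, -0.0464 and -0.311. The median r over all 14028 pairs of tested features was -0.00463, with quartiles at -0.214 and 0.213. Among all 167 other tested features, miR-10b was the closest to miR-99a and miR-99a the second closest to miR-10b. These are descriptions over 18 libraries that may share ewes and that share depth and scaling, so no p is given.

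The 3 correlations kept their sign in each subset tried, at varied strength. For deviations from the means of the 6 groups, r was 0.576, 0.557 and 0.548 in the order above. Within the 9 CTRL libraries it was 0.563, 0.735 and 0.794, and within the 9 OBESE libraries 0.736, 0.412 and 0.269. Without CTRL week 14 replicate 1 it was 0.497, 0.449 and 0.454, and without the 2 libraries farthest from the median of the first miRNA 0.531, 0.430 and 0.383. On library totals alone the r of miR-10a and miR-10b was 0.372 in place of -0.038, so that this value depends on the scaling. The r of miR-10a and miR-99a was -0.272 within the CTRL and 0.699 within the OBESE libraries, and the difference between the diets was not tested. For miR-10a and miR-125b r was -0.358 on deviations from group means, -0.55 without the 2 libraries farthest from the median, and between -0.444 and -0.108 with 1 library left out.

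The features closest to each miRNA, outside the 4, were named by their r over the 18 libraries. For miR-10a they were miR-221, a vascular miRNA (r = 0.655), unnamed miRNA 11 (0.64) and miR-30d (0.632), where "unnamed" stands for features that the files give by a running number alone. For miR-10b they were unnamed miRNAs 71 (0.689), 28 (0.661) and 64 (0.641). For miR-99a they were unnamed miRNAs 66 (0.518) and 36 (0.509) and miR-369-5p (0.499), and for miR-125b unnamed miRNA 86 (0.667), miR-127 (0.611) and unnamed miRNA 12 (0.571). All were picked as the highest r among the tested features, so a high r follows from the choice. Several had low levels (mean ± SD, n = 18). These were miR-369-5p (15.5 ± 9.69 CPM) and unnamed miRNAs 86 (20.3 ± 10.7 CPM), 71 (35.9 ± 28.4 CPM), 66 (38.6 ± 12.2 CPM) and 64 (54.8 ± 26 CPM).

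Of 14 features listed as paralogs or possible cluster neighbours of these families, 3 were named in the files, let-7a, let-7c and let-7f, all of the growth-restraining let-7 family. Among these 3, only let-7c had a matched gene next to a gene of the 4. The matched gene of let-7a lay on chromosome 2 beside MIRLET7D. That of let-7f lay on chromosome X, with no miRNA gene among its 10 neighbours. let-7c, the neighbour of miR-99a in the gene table, averaged 4724 ± 822 CPM (SD, n = 18), far above the 239 CPM of miR-99a. Their levels gave an r of 0.105 over the 18 libraries, while let-7c and miR-125b gave 0.542. On deviations from group means these were 0.33 and 0.726. The strongest of the 12 relations between the 4 miRNAs and the 3 let-7 members was negative, between miR-10a and let-7f (r = -0.645, and -0.819 on deviations), and the other 9 lay between -0.334 and 0.252. let-7c had a log2 fold change over the weeks of -0.16 (SE 0.131), let-7a of -0.03 (SE 0.102) and let-7f of -0.02 (SE 0.095), and 0 of 3 passed the edgeR test, in this or any of the other 9 comparisons. miR-99b, miR-100, miR-125a and the miR-196 genes of the HOX clusters are not named features and were not analysed here.

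Total counts ranged from 388574 to 1269829 in CTRL and from 488427 to 1171984 in OBESE libraries. The TMM factor was 0.653 in CTRL week 7 replicate 1 and 0.718 in replicate 3 of CTRL week 14, and between 0.891 and 1.19 in the other 16. A low factor raises every CPM of a library, so all levels below are raised in these 2 libraries. Marker sums were not compared without this scaling. Among markers of blood cells, 3 of 8 listed for red blood cells (miR-16b, miR-25 and miR-106b) were named in the files, with a summed level of 397500 to 829300 CPM in CTRL and 359500 to 579100 CPM in OBESE libraries, highest in these 2 at 829300 and 769600 CPM. The first of these also had the highest CTRL level of the muscle miRNA miR-133 (127.5 CPM, with OBESE libraries at 7.68 to 41.4 CPM), of the liver miRNA miR-194 (108.9 CPM, OBESE 38.98 to 147 CPM) and of the 2 stromal miRNAs listed (4352 CPM, OBESE 2344 to 4599 CPM). The second, CTRL week 14 replicate 3, had 4.275 CPM of miR-133, where the lowest CTRL library had 2.385 CPM. Its miR-194 stood at 78.38 CPM and its stromal sum at 3520 CPM. Platelet miRNAs (4 of 6 listed) summed to 29150 to 44860 CPM in CTRL and 24990 to 56400 CPM in OBESE libraries. In CTRL week 7 replicate 1 this sum was 32980 CPM. The 4 were miR-191, miR-21, miR-199a-3p and miR-221. With miR-143, miR-199a-3p also makes up the stromal sum, so the 2 sums share it. The leukocyte miRNA miR-150 stood at 2364 to 12950 and 2816 to 26790 CPM. The endothelial miR-221, also on the platelet list, stood at 262 to 386 and 194 to 419 CPM. The defining red cell miRNAs miR-451 and miR-144 and the liver miRNA miR-122 are not among the named features, and the part of other cells' RNA in the levels above was not tested. Without both libraries the averaged log2 fold changes were -0.12 for miR-10a, 0.18 for miR-10b, 0.39 for miR-99a and 0.13 for miR-125b, with edgeR adjusted p of 0.844, 0.759, 0.533 and 0.883.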

How the data were processed

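RNA from 200 µL of plasma was made into libraries with the QIAseq miRNA kit, which adds molecular identifiers, and read as 76-nucleotide single reads on an AVITI instrument, per the labels' protocols. Cutadapt 4.9, Bowtie 1.3.1 and DESeq2 1.42 are listed in the submitters' processing notes, with no role for any. Files deposited by the authors hold unnormalized counts for each miRNA, and whether these are molecules or reads is not stated. The genome build, the annotation and the assignment of reads that match several miRNAs: not given in the sources used here. Between them, the table of the series and the 18 files differed in 0 values.

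Counts were analysed with edgeR 4.0.16 in R 4.3.3: filterByExpr by group (minimum count 10, minimum total 15; 168 of 364 features kept, among them all 4 described), TMM, and 1 quasi-likelihood fit over 18 libraries and 6 groups (12 residual degrees of freedom). Two-sided p-values were adjusted by Benjamini-Hochberg over 168 features, with 0.05 as the threshold. Dividing each log2 fold change by the root of its F statistic gave the SE. Log2 CPM used a prior count of 2 and count ratios a pseudocount of 0.5. DESeq2 1.42.0 and limma 3.58.1 were alternatives, and the edgeR step was tested on simulated data. In each of 20 runs 40 of 168 features were changed, and all libraries were drawn independently. There it called 70.2% of 2-fold changes for the averaged diet difference and 27.3% for the diets at week 7. The share of changed features in the real data is not known, and weeks may share ewes. These rates may therefore not hold for the real data. Of its calls 5.12% and 2.78% were false. Changes smaller than 2-fold were not simulated. The closest features are the 3 with the highest r for each miRNA. The miRNAs and lists were chosen with earlier results of these data known. The 3 listed let-7 members and the marker lists are described by counts and summed levels.

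Replicate numbers recur in all groups. Deviations from group means of same-numbered libraries correlated at -0.025 to 0.69 between weeks of 1 diet (over 0.1 in 16 of 18 pairs) and at 0.021 to 0.35 between diets (4 of 9). Among the comparisons made, every pair exceeded 0.1 for CTRL week 10 against 7 and OBESE week 14 against 7 only, and it did so too between weeks 10 and 14 of either diet, which were not compared. Reported values come from the fit without a block, and the block was run as an alternative for every comparison.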

Additional observations from a re-analysis of the deposited data

Results flagged for a closer look

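CTRL week 14 replicate 1 had a miR-10b level of 244 CPM, where the next lowest of the 9 CTRL libraries had 432 CPM. Its gap to the nearest library, as a share of the range, was 0.588, above Dixon's 95% critical value of 0.493 for 9 libraries. The same library had a ratio of miR-10a to miR-10b counts of 3.58, against 2.31 in the next highest, a share of 0.517. Of 12 sets of 9 libraries looked at (4 levels and 2 ratios in each diet), 2 had such a library, the same in both, and the 2 values share its miR-10b count; chance marks about 1 in 20. The library held 751394 counts with a TMM factor of 1.11, within the range of the others, and its miR-10a level of 875 CPM was near the CTRL mean of 872 CPM.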

How the results depend on the processing

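No call on miR-10a, miR-10b, miR-99a or miR-125b changed under the alternatives that were run: 0 of 1080 values over 40 results passed, the lowest adjusted p being 0.339, while 973 kept their direction and 107 turned it, 73 of them by leaving out 1 library. The number of features called for the averaged diet difference, 0 with edgeR, was 2 with DESeq2, 4 without the filter and 1 with the stricter filter (50 counts in 3 libraries), and ranged from 0 to 2 when 1 library was left out, as it did from 0 to 1 for the diets at week 14. The difference in log2 ratio of miR-10a to miR-10b ranged from -0.443 to -0.168 when 1 library was left out, and that of miR-99a to miR-125b from 0.136 to 0.336.

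With RLE scaling the log2 fold changes that turned were miR-125b 0.026 (diets, week 7). Without TMM scaling the log2 fold changes that turned were miR-10a 0.0587 (diets, mean of weeks), miR-10a 0.201 and miR-125b 0.251 (diets, week 7), miR-10a 0.0688 and miR-125b 0.14 (diets, week 14), miR-99a 0.0636 (CTRL week 10 minus week 7), miR-10b 0.00871 (OBESE week 14 minus week 7), miR-99a -0.055 (interaction, week 14 against 7). With DESeq2 the log2 fold changes that turned were miR-125b 0.0258 (diets, week 7). With limma-voom the log2 fold changes that turned were miR-125b 0.0163 (diets, week 14), miR-125b 0.0541 (interaction, week 14 against 7). Without the filter the log2 fold changes that turned were miR-125b 0.00215 (diets, week 7), miR-10b 0.0177 (OBESE week 14 minus week 7). With the stricter filter the log2 fold changes that turned were miR-10b -0.023 and miR-99a -0.00789 (diets, week 7), miR-10b -0.059 and miR-125b -0.0522 (CTRL week 10 minus week 7), miR-10b 0.0076 (OBESE week 14 minus week 7), miR-10a 0.0215 and miR-125b 0.0173 (interaction, week 14 against 7). Leaving out both CTRL libraries of low TMM factor, the log2 fold changes that turned were miR-10b -0.0627 and miR-125b 0.162 (diets, week 7), miR-125b 0.0102 (diets, week 14), miR-10b -0.0803 and miR-99a 0.162 (CTRL week 10 minus week 7), miR-99a 0.198 (CTRL week 14 minus week 7), miR-10a 0.0301 (interaction, week 10 against 7), miR-10a 0.169 and miR-99a -0.292 (interaction, week 14 against 7). With the replicate number as a block the log2 fold changes that turned were miR-125b 0.00855 (diets, week 14). With the block nested in diet the log2 fold changes that turned were miR-10b -0.00385 and miR-125b -0.048 (CTRL week 10 minus week 7), miR-125b 0.108 (interaction, week 14 against 7).

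Over the fits without 1 library, which reapplied the filter and tested 176 to 181 features, the log2 fold changes that turned had these ranges. The diets, week 7, gave miR-10b -0.17 to 0.113, miR-125b -0.355 to 0.166, miR-10a -0.322 to 0.104 and miR-99a -0.188 to 0.456. CTRL week 10 minus week 7, gave miR-99a -0.413 to 0.26, miR-10b -0.0435 to 0.117, miR-125b -0.204 to 0.306 and miR-10a -0.0114 to 0.367. CTRL week 14 minus week 7, gave miR-99a -0.443 to 0.278, miR-125b -0.414 to 0.0467, miR-10a -0.216 to 0.0439 and miR-10b -0.413 to 0.0439. Interaction, week 10 against 7, gave miR-125b -0.0131 to 0.593 and miR-10a -0.305 to 0.143. Interaction, week 14 against 7, gave miR-99a -0.372 to 0.356, miR-125b -0.296 to 0.233, miR-10a -0.284 to 0.18 and miR-10b -0.0885 to 0.411. The diets, mean of weeks, gave miR-125b -0.103 to 0.112. OBESE week 14 minus week 7, gave miR-10a -0.335 to 0.0908, miR-10b -0.115 to 0.162, miR-99a -0.239 to 0.106 and miR-125b -0.35 to 0.065. OBESE week 10 minus week 7, gave miR-10a -0.0741 to 0.318. The diets, week 10, gave miR-125b -0.0563 to 0.497 and miR-10a -0.371 to 0.00738. The diets, week 14, gave miR-10b -0.0702 to 0.404, miR-99a -0.100 to 0.361 and miR-125b -0.304 to 0.0793.

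The replicate block gave 0 calls in each comparison, as did the fit without it, and features with an unadjusted p under 0.05 for the averaged diet difference numbered 28 with it and 19 without. For the diets this block pairs same-numbered libraries of different diets, which cannot come from the same ewe. Only 4 of 9 such pairs correlated over 0.1. For CTRL week 10 and OBESE week 14 against week 7, where every pair deviated together, they numbered 9 and 22 with the block nested in diet and 3 and 13 without. For the ratios, the block instead paired the means over weeks of same-numbered CTRL and OBESE libraries. The exact sign-flip p of both ratios was then 0.5, where 3 sign flips cannot give less than 0.25. The 4 miRNAs had at least 61 counts in every library, and their counting errors, with each count taken as 1 molecule, were below the spread between libraries of 1 group.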
